A study of Arabidopsis thaliana with 12 samples.

Results

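Mitochondrial stress genes are nuclear genes whose transcripts accumulate when mitochondria, or organelles more broadly, are disturbed. The 4 genes described here are AT2G21640, AT5G09570, AT2G04050 and AT1G17960, out of 13356 genes that had a probe set of their own (13513 probe sets, of 22746 tested in all). They were chosen by locus as known markers of mitochondrial stress or as genes that behave like them, and because their transcripts were higher with lincomycin, with results of these arrays already known. The comparison of seedlings with and without lincomycin is therefore given as a description, without a test. All 4 members had a probe set that names the gene alone, and no filter on low values was applied.

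Whole seedlings of Arabidopsis thaliana, 5 days old and grown in cycles of light (20 µmol) and dark at 21 °C on medium with 1% sucrose, were measured on 12 Affymetrix arrays. The 6 groups of 2 arrays each were gun1-1 with lincomycin, gun1-1 without it, abi4-102 with it, abi4-102 without it, Col-0 with it and Col-0 without it. Both mutants are in the Col-0 ecotype, and Col-0 is the wild type. Lincomycin was added at 220 µg/ml by the treatment protocol and at 200 µg/ml by the source name. For gun1-1 without lincomycin replicate 2 the tag for genotype names Col-0 and both mutants, so its title decided the group. The mutated genes themselves had no probe set that could be read here, so the labels were not checked against them. Values are log2 levels made by the authors with RMA, which makes the arrays' distributions alike, so that each level is relative to the rest of the array.

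Lincomycin binds the bacterial type of ribosome and blocks translation in plastids. GUN1 is a pentatricopeptide repeat protein of plastids that takes part in signalling to the nucleus, and ABI4 is a transcription factor of abscisic acid and sugar responses. In Arabidopsis, inhibition of respiration or of translation in mitochondria releases NAC transcription factors from the endoplasmic reticulum, and these activate a set of nuclear genes, among them genes for alternative oxidase, small heat shock proteins and transporters. The roles of the 4 genes given here are textbook background, since the annotation used gives their loci without a description. AT2G21640 is known as UPOX, a gene raised by oxidative stress whose protein is found in mitochondria. AT5G09570 encodes a small mitochondrial protein with paired cysteine motifs. AT2G04050 encodes a transporter of the multidrug and toxic compound extrusion (MATE) family, and AT1G17960 a threonyl-tRNA synthetase, an enzyme that loads a tRNA with its amino acid for translation.

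Of the 4 genes, 3 were higher on every array with lincomycin than on any array without it over all genotypes. These were AT2G21640, AT2G04050 and AT1G17960, with group mean differences between 1.61 and 3.45 on the log2 scale. AT5G09570 differed: it was clearly higher with lincomycin in gun1-1 and changed little in abi4-102 and Col-0. Among arrays with lincomycin the genes also ordered the genotypes differently. AT2G21640 and AT5G09570 had their highest group mean in gun1-1 with lincomycin, while AT2G04050 and AT1G17960 had theirs in abi4-102 with lincomycin.

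**Figure D1:**
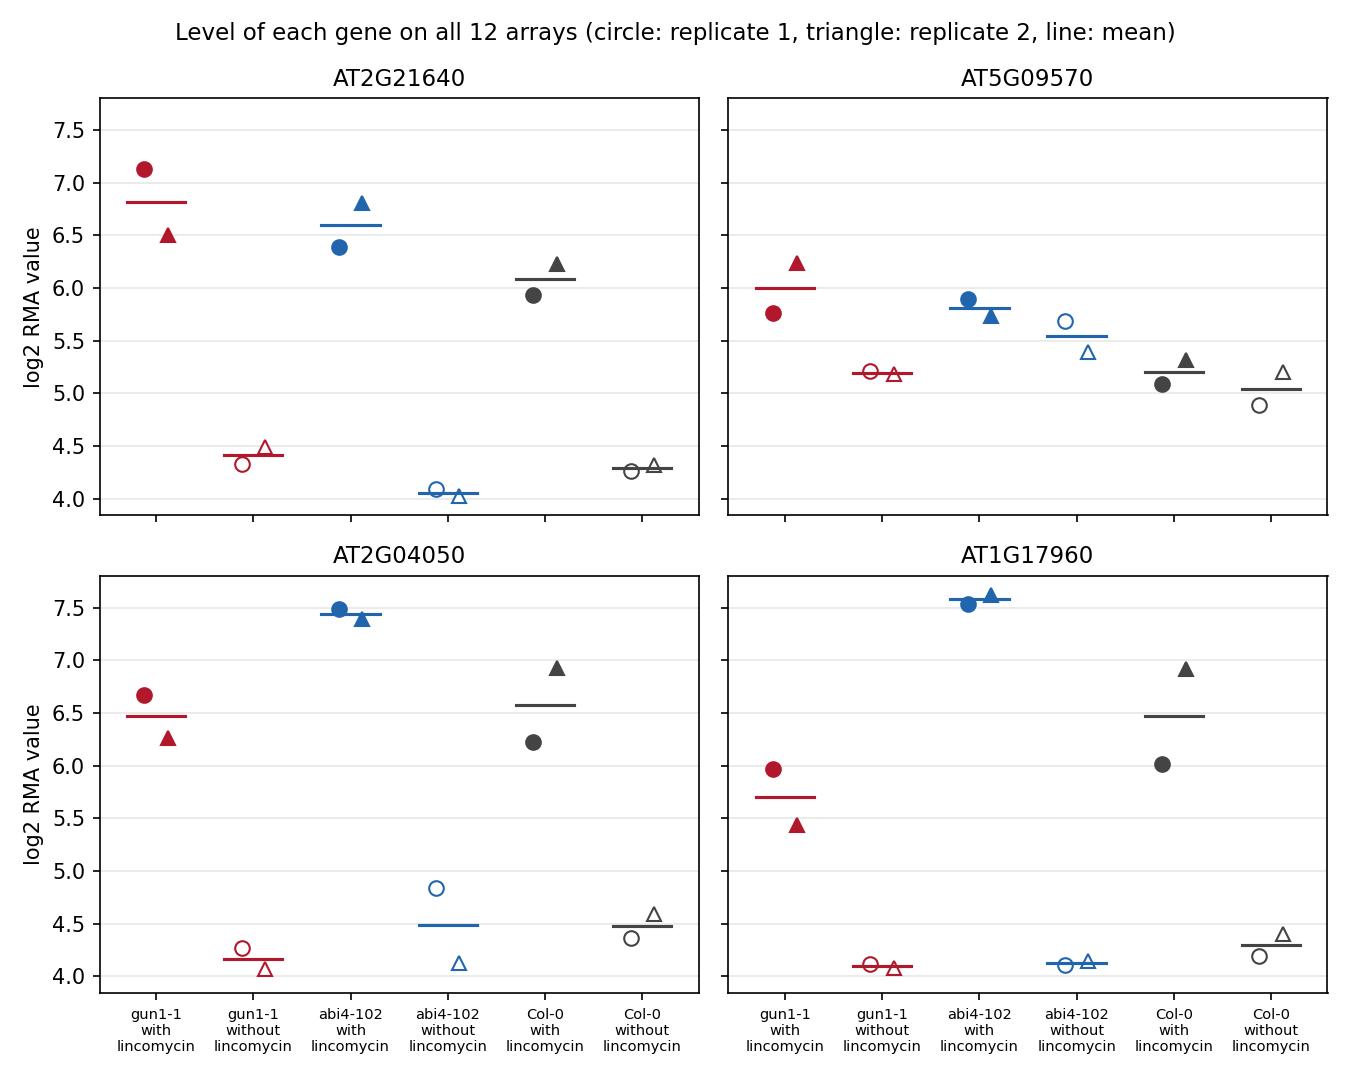
Log2 RMA level of the 4 genes on the 12 arrays, by genotype and medium. Filled symbols are arrays with lincomycin, open symbols arrays without it, circles replicate 1, triangles replicate 2, and lines group means. In AT2G21640, AT2G04050 and AT1G17960 the filled and open symbols do not overlap, while in AT5G09570 arrays with lincomycin reach down to 5.09 and arrays without it up to 5.69.

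AT2G21640, the oxidative stress marker, had log2 levels of 7.13 and 6.50 in gun1-1 with lincomycin, against 4.33 and 4.49 in gun1-1 without it. In abi4-102 the levels were 6.39 and 6.81 with lincomycin, against 4.09 and 4.02 without it. In Col-0 they were 5.93 and 6.23 with lincomycin, against 4.26 and 4.32 without it. All arrays with lincomycin thus lay above all arrays without it, with the lowest at 5.93 and the highest at 4.49. The with-lincomycin mean exceeded the without-lincomycin mean 5.30-fold in gun1-1 (log2 difference 2.41, SE 0.20), 5.83-fold in abi4-102 (2.54, SE 0.20) and 3.45-fold in Col-0 (1.79, SE 0.20). Among the 13513 probe sets that name 1 gene, these differences ranked 8 from the top in gun1-1, 8 in abi4-102 and 25 in Col-0. The medium accounted for 93.5% of the variance over the 12 arrays, the genotype for 2.34%, their combination for 2.00% and the spread between replicates for 2.12%.

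AT5G09570, the gene of the small mitochondrial protein, had log2 levels of 5.77 and 6.23 in gun1-1 with lincomycin, against 5.21 and 5.18 in gun1-1 without it. In abi4-102 it had 5.89 and 5.73 with lincomycin, against 5.69 and 5.40 without it. In Col-0 it had 5.09 and 5.32 with lincomycin, against 4.89 and 5.20 without it. The Col-0 arrays with and without lincomycin overlapped, whereas those of gun1-1 and abi4-102 did not. In abi4-102 the margin was smaller than the gap between the replicates without lincomycin. The fold difference was 1.75 in gun1-1 (log2 difference 0.81, SE 0.18), 1.21 in abi4-102 (0.27, SE 0.18) and 1.12 in Col-0 (0.16, SE 0.18). The name of a gene induced by lincomycin therefore rests on gun1-1 for AT5G09570. By rank these differences stood at 207, 2473 and 3781 from the top of 13513 in gun1-1, abi4-102 and Col-0. Genotype took 41.8% of the variance over the arrays, the medium 30.1%, their combination 14.1% and replicates 14.0%.

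AT2G04050, the MATE transporter gene, had log2 levels of 6.67 and 6.26 in gun1-1 with lincomycin, against 4.27 and 4.07 in gun1-1 without it. In abi4-102 with lincomycin it had 7.48 and 7.39, against 4.84 and 4.13 without it. Col-0 with lincomycin had 6.23 and 6.93, against 4.37 and 4.596 without it. No array without lincomycin exceeded 4.84, and none with it was below 6.23. The abi4-102 arrays with lincomycin were the highest of all 12. The with-lincomycin level was 4.92-fold that without it in gun1-1 (log2 difference 2.30, SE 0.26), 7.74-fold in abi4-102 (2.95, SE 0.26) and 4.28-fold in Col-0 (2.10, SE 0.26), which ranked 11, 4 and 13 from the top. The medium accounted for 90.5% of the variance and the genotype for 4.31%.

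AT1G17960, the threonyl-tRNA synthetase gene, had log2 levels of 5.97 and 5.44 in gun1-1 with lincomycin, against 4.12 and 4.08 in gun1-1 without it. In abi4-102 the arrays with lincomycin stood at 7.54 and 7.62, against 4.11 and 4.15 without it. In Col-0 they stood at 6.02 and 6.92 with lincomycin, against 4.197 and 4.40 without it. With lincomycin the 3 genotypes did not overlap, abi4-102 being highest and gun1-1 lowest. The fold difference was 3.05 in gun1-1 (log2 difference 1.61, SE 0.25), 10.9 in abi4-102 (3.45, SE 0.25) and 4.50 in Col-0 (2.17, SE 0.25). In abi4-102 this was the highest of the 13513 probe sets that name 1 gene, and in gun1-1 and Col-0 it ranked 39 and 9. The combination of genotype and medium accounted for 8.26% of the variance of AT1G17960, the genotype for 8.43% and the medium for 80.7%.

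The share of all probe sets whose arrays with lincomycin both lay above both without it was 26.3% in gun1-1, 31.8% in abi4-102 and 32.7% in Col-0. Of the 4 genes, all 4 did so in gun1-1 and abi4-102 and 3 in Col-0, as the choice of members led them to. The median log2 difference of the 4 genes was 1.95 in gun1-1, 2.75 in abi4-102 and 1.94 in Col-0, beside -0.01, 0.02 and 0.02 over all probe sets. Without lincomycin AT2G21640, AT2G04050 and AT1G17960 had log2 levels from 4.02 to 4.84, between the arrays' lower quartiles (3.61 to 3.76) and medians (5.44 to 5.52), a range in which RMA understates differences. The Col-0 arrays with lincomycin differed from each other in the same direction in all 4 genes, replicate 2 being higher, by 0.90 for AT1G17960 and 0.70 for AT2G04050. Leaving out 1 of these arrays set the Col-0 log2 difference of AT1G17960 between 1.72 and 2.62 and that of AT2G04050 between 1.75 and 2.45.

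**Figure D2:**
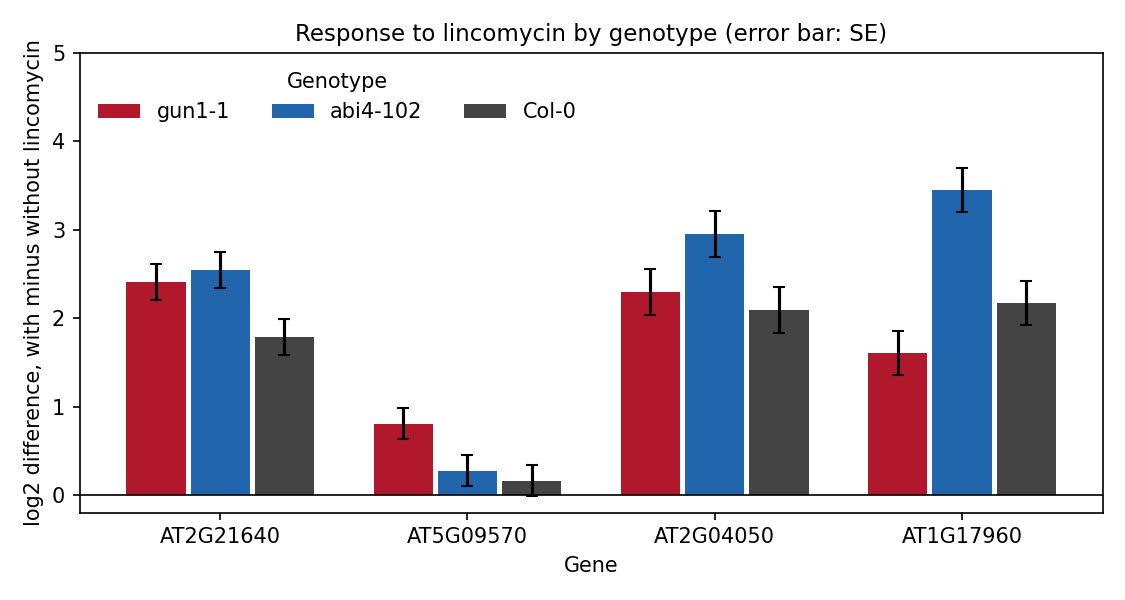
Log2 difference between seedlings with and without lincomycin for each gene and genotype. Bars are differences of group means (2 arrays each) and error bars their SE. AT2G21640, AT2G04050 and AT1G17960 lie between 1.61 and 3.45, AT5G09570 between 0.16 and 0.81, and AT1G17960 in abi4-102 is the highest.

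Genes used as markers of plant parts also differed between media, to an extent that varied with genotype. Of the markers listed, 3 of 7 for shoot and photosynthetic cells, 4 of 5 for roots and 0 of 3 for the epidermis had a probe set of their own. Linear levels of 3 antenna genes of photosynthetic cells, LHCB4.1, LHCB4.2 and LHCB4.3, were summed on each array. The log2 of this sum was 12.71 to 12.76 in gun1-1 with lincomycin, against 13.02 to 13.11 without it. It was 11.89 to 12.04 in abi4-102 with lincomycin, against 12.74 to 12.89 without it. In Col-0 it was 11.56 to 11.81 with lincomycin, against 12.90 to 13.03 without it. LHCB4.3 is far dimmer and weighs little in the sum. Its log2 difference was -0.64 in gun1-1, -0.79 in abi4-102 and -0.36 in Col-0. That of LHCB4.1 was -0.28, -1.05 and -1.15, and that of LHCB4.2 -0.41, -0.61 and -1.47. By limma with Benjamini-Hochberg adjustment over all probe sets 2 of the 3 fell in gun1-1, 3 in abi4-102 and 2 in Col-0, where 4.9%, 5.51% and 7.95% of all probe sets were called lower. The log2 of the summed linear levels of 4 root markers was 7.63 to 8.50 in gun1-1 with lincomycin, against 7.02 to 7.06 without it. In abi4-102 it was 7.54 to 7.82 with lincomycin, against 7.07 to 7.56 without it, and in Col-0 7.34 to 7.77, against 7.18 to 7.25. Of the 4 root markers 3 rose in gun1-1, 1 in abi4-102 and 0 in Col-0, where 5.79%, 7.65% and 9.4% of all probe sets were called higher. In gun1-1 with lincomycin replicate 1 lay above replicate 2 for all 4 root markers, by 0.64 (AT3G54580) to 1.19 (EXPA7). EXPA7 had 5.63 and 4.43 there, against 4.60 and 4.85 without lincomycin. That 4.43 was the lowest single marker value. It lay between the arrays' lower quartiles (3.61 to 3.76) and medians (5.44 to 5.52), a range in which RMA understates differences. The part of these shifts in the levels of the 4 stress genes was not tested. In whole seedlings a change in the share of a cell type cannot be told apart from a change in RNA per cell. The latter includes regulation of the marker gene itself, and the 3 antenna genes are photosynthesis genes.

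The mutants were then compared with Col-0 on each medium, which is not the contrast that chose the genes, although the arrays are the same. Each comparison was tested with limma over all 22746 probe sets, with two-sided p-values adjusted by Benjamini and Hochberg's method. AT2G04050 and AT1G17960 were taken from the largest differences in abi4-102 with lincomycin, so that comparisons with that group are given for them as values only. The same holds for AT5G09570 and gun1-1 with lincomycin, the group in which it counted as induced. The arrays with lincomycin also entered the contrast that chose the genes, so these tests are not independent of the choice. The labels give replicate samples without saying whether they were grown as separate cultures, so each p-value reflects a spread that may be technical.

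Without lincomycin none of the 4 genes passed in either mutant. In gun1-1 against Col-0 the count was 0 of 4, with 0 at an unadjusted p under 0.05, where 0.022% of all probe sets passed. An unadjusted p under 0.05 was reached by 1532 of 22746 probe sets. The log2 differences of gun1-1 from Col-0 were 0.12 for AT2G21640, 0.15 for AT5G09570, -0.31 for AT2G04050 and -0.20 for AT1G17960. The 95% intervals of these differences reached at most 0.56 above 0 (AT2G21640) and 0.89 below it (AT2G04050, lower bound -0.89). On simulated arrays of this comparison, with 100 probe sets changed by 1 on the log2 scale and 100 by 2, 81% of those changed by 1 were found. That share depends on how many probe sets change. In the data 5 passed, so the share may not hold for them.

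In abi4-102 against Col-0 without lincomycin the count was also 0 of 4, with 1 at an unadjusted p under 0.05, where 1.68% of all probe sets passed. That gene was AT5G09570, whose log2 levels of 5.69 and 5.40 in abi4-102 lay above 4.89 and 5.20 in Col-0. The difference was 1.41-fold (log2 difference 0.50, SE 0.18, adjusted p = 0.206). Of all 22746 probe sets 3354 had an unadjusted p under 0.05 in this comparison. The log2 differences of the other 3 genes were -0.24 for AT2G21640, 0.003 for AT2G04050 and -0.17 for AT1G17960. AT2G04050 had the widest gap between abi4-102 replicates without lincomycin, 0.72 on the log2 scale. In gun1-1 against abi4-102 without lincomycin 0 of 4 passed, and 0 at an unadjusted p under 0.05, beside 0.211% of all probe sets. An unadjusted p under 0.05 was reached by 2323 of 22746 probe sets. The log2 differences there ran from -0.35 for AT5G09570 to 0.355 for AT2G21640 (SE 0.20).

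With lincomycin 1 of the 3 genes tested between gun1-1 and Col-0 was called higher in gun1-1, and the other 2 did not pass. AT2G21640 was 1.67-fold higher in gun1-1 (group means 6.82 in gun1-1 and 6.08 in Col-0; log2 difference 0.74, SE 0.20, adjusted p = 0.0422). AT5G09570 had means of 6.001 in gun1-1 and 5.20 in Col-0 (1.74-fold, log2 difference 0.80, SE 0.18), a value without a test. Of all probe sets 10% passed and 5.98% were called higher. AT2G04050 had group means of 6.47 in gun1-1 and 6.58 in Col-0 (log2 difference -0.11, SE 0.26, adjusted p = 0.863), with overlapping arrays. The mean of AT1G17960 was 5.71 in gun1-1 and 6.47 in Col-0 (log2 difference -0.76, SE 0.25, adjusted p = 0.0839), which did not pass although the arrays did not overlap.

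The call of AT2G21640 was lost without gun1-1 with lincomycin replicate 1 (log2 difference 0.42, adjusted p = 0.216), without Col-0 with lincomycin replicate 1 (0.59, adjusted p = 0.215) or without Col-0 with lincomycin replicate 2 (0.88, adjusted p = 0.0602). In a limma fit of the compared groups alone AT2G21640 did not pass either (adjusted p = 0.156). The difference of AT5G09570 was 0.56 without gun1-1 with lincomycin replicate 2 and 1.03 without replicate 1. Conversely, without Col-0 with lincomycin replicate 1 AT1G17960 was called lower in gun1-1 (log2 difference -1.21, adjusted p = 0.00581).

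In abi4-102 with lincomycin all 4 genes had higher means than in Col-0 with lincomycin, and the arrays of both groups did not overlap for any of them. Both arrays of abi4-102 lay above both of Col-0 for 19.6% of all probe sets. AT2G21640 had means of 6.60 in abi4-102 and 6.08 in Col-0 (1.43-fold, log2 difference 0.52, SE 0.20), and AT5G09570 had 5.81 in abi4-102 and 5.20 in Col-0 (1.52-fold, 0.61, SE 0.18). Neither passed (adjusted p = 0.367 and 0.228), while both had an unadjusted p under 0.05. Of all probe sets 0.457% passed in this comparison, and 2496 of 22746 had an unadjusted p under 0.05. AT2G04050 had means of 7.44 in abi4-102 and 6.58 in Col-0 (1.81-fold), and AT1G17960 had 7.58 in abi4-102 and 6.47 in Col-0 (2.16-fold). For AT1G17960 the log2 difference of 1.11 lay between 0.66 and 1.56 when single arrays were left out, and for AT2G04050 that of 0.86 lay between 0.51 and 1.21, with both extremes of each set by the Col-0 arrays with lincomycin.

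The mutants with lincomycin were set against each other too. AT2G21640 had means of 6.82 in gun1-1 and 6.60 in abi4-102 (log2 difference 0.22, SE 0.20, adjusted p = 0.558), and AT5G09570 had 6.001 in gun1-1 and 5.81 in abi4-102 (0.19, SE 0.18), given without a test. The 95% interval for AT2G21640 ran from -0.22 to 0.66. For AT5G09570 the difference was -0.046 without gun1-1 with lincomycin replicate 2 and 0.42 without replicate 1. AT2G04050 had a mean of 6.47 in gun1-1 and 7.44 in abi4-102, and AT1G17960 of 5.71 in gun1-1 and 7.58 in abi4-102. The arrays did not overlap for these 2 genes, as for the 27.5% of all probe sets with both gun1-1 arrays below both of abi4-102, and 10.9% of all probe sets passed. They had log2 differences of -0.97 (SE 0.26) and -1.88 (SE 0.25), AT1G17960 being 3.67-fold lower in gun1-1.

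**Figure D3:**
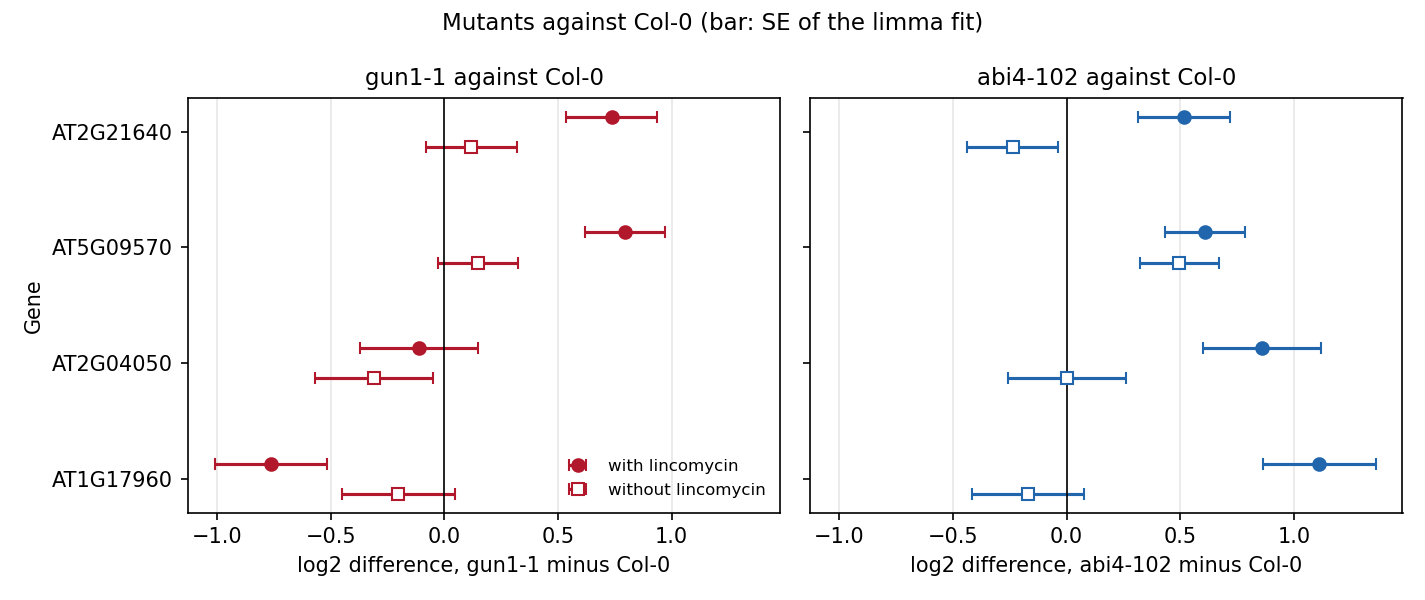
Log2 differences of gun1-1 and of abi4-102 from Col-0, with lincomycin (filled) and without it (open). Points are differences of group means (2 arrays each) and bars their SE. With lincomycin AT2G21640 and AT5G09570 are above 0 in both mutants, while AT1G17960 is at -0.76 in gun1-1 and 1.11 in abi4-102.

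The size of the lincomycin response itself was compared between genotypes with the interaction term of the limma fit. The genes were chosen by these same responses, so the interaction tests are not independent of the choice and are read as a description. Of the 3 genes tested 0 passed for gun1-1 against Col-0 in limma, with 0 at an unadjusted p under 0.05, where 4.38% of all probe sets passed. An unadjusted p under 0.05 was reached by 3732 of 22746 probe sets. The response of AT2G21640 was 2.41 in gun1-1 and 1.79 in Col-0 (difference of log2 differences 0.62, SE 0.28, adjusted p = 0.315). That of AT5G09570 was 0.81 in gun1-1 and 0.16 in Col-0 (0.65, SE 0.25, no test), and the difference was 0.41 without gun1-1 with lincomycin replicate 2 and 0.88 without replicate 1. AT2G04050 responded by 2.30 in gun1-1 and 2.10 in Col-0 (0.20, SE 0.37, adjusted p = 0.858). AT1G17960 responded by 1.61 in gun1-1 and 2.17 in Col-0 (-0.56, SE 0.35, adjusted p = 0.492), and its difference was -1.01 without Col-0 with lincomycin replicate 1 and -0.11 without replicate 2. On simulated arrays, with 100 probe sets changed by each size, this interaction found 36% of differences of 1 and 95% of differences of 2 on the log2 scale. These shares depend on how many probe sets change. In the data 997 passed, so the shares may not hold for them. The differences of the 3 genes tested were smaller than 1, a size the simulation did not cover.

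For abi4-102 against Col-0 the response differences were 0.75 for AT2G21640 (SE 0.28, adjusted p = 0.433) and 0.11 for AT5G09570 (SE 0.25, adjusted p = 0.930), neither of which passed in limma. One of them, AT2G21640, had an unadjusted p under 0.05 (0.0229). Of all probe sets 0% passed (0 of 22746, with 2230 at an unadjusted p under 0.05, and 9 with an intensity trend in limma). The count was 4 without Col-0 with lincomycin replicate 1 and 1 without Col-0 without lincomycin replicate 1. AT2G04050 responded by 2.95 in abi4-102 and 2.10 in Col-0, and AT1G17960 by 3.45 in abi4-102 and 2.17 in Col-0, given as values for the reason stated. These response differences, 0.86 for AT2G04050 and 1.28 for AT1G17960, lay between 0.50 and 1.21 and between 0.83 and 1.73 when single arrays were left out. The extremes came from abi4-102 without lincomycin replicates 2 and 1 for AT2G04050, and from Col-0 with lincomycin replicates 1 and 2 for AT1G17960. For gun1-1 against abi4-102, where 0.532% of all probe sets passed, the difference for AT2G21640 did not (-0.14, adjusted p = 0.924). That for AT5G09570 was 0.54 (SE 0.25, no test), between 0.30 without gun1-1 with lincomycin replicate 2 and 0.77 without replicate 1. The response of AT1G17960 was 1.61 in gun1-1 and 3.45 in abi4-102, a log2 difference of -1.84 (SE 0.35). The comparisons share arrays: each mutant is set against the same Col-0 arrays.

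The order of the group means gives the same picture gene by gene. For AT2G21640 it ran gun1-1, abi4-102 and Col-0 with lincomycin, then gun1-1, Col-0 and abi4-102 without it. The leading pair overlapped, and the steps among the groups without lincomycin were 0.12 and 0.24 on the log2 scale, close to their SE of 0.20. For AT5G09570 the order was gun1-1 with lincomycin, abi4-102 with it, abi4-102 without it, Col-0 with it, gun1-1 without it and Col-0 without it. The steps of AT5G09570 were at most 0.34 (SE 0.18), and 3 of the 5 neighbouring pairs overlapped. For AT2G04050 the order was abi4-102, Col-0 and gun1-1 with lincomycin, then abi4-102, Col-0 and gun1-1 without it. Col-0 and gun1-1 with lincomycin overlapped in AT2G04050, as did abi4-102 and Col-0 without it. For AT1G17960 it was abi4-102, Col-0 and gun1-1 with lincomycin, then Col-0, abi4-102 and gun1-1 without it, and the overlapping pair was abi4-102 and gun1-1 without lincomycin.

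Correlations between the genes are given as a description, since the arrays share genotypes and media. Over all 12 arrays AT2G04050 and AT1G17960 correlated at r = 0.97, AT2G21640 and AT2G04050 at 0.93, and AT2G21640 and AT1G17960 at 0.87, values that carry the gap between media. Among the 6 arrays with lincomycin alone, r was 0.95 for AT2G04050 with AT1G17960, 0.55 for AT2G21640 with AT5G09570, 0.27 for AT2G21640 with AT2G04050 and 0.03 for AT2G21640 with AT1G17960. AT5G09570 had r = 0.14 with AT2G04050 and -0.12 with AT1G17960 on those arrays. Among the 6 arrays without lincomycin AT2G04050 and AT1G17960 correlated at 0.36.

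Other genes of the mitochondrial dysfunction response were read from a list of 23 loci, of which 10 had a probe set of their own and could be read. The list was drawn up with results of these arrays known. Of these 10 genes 2 rose in gun1-1, 3 in abi4-102 and 2 in Col-0, and 0 fell in any genotype. Among all probe sets 5.79% were called higher with lincomycin in gun1-1, 7.65% in abi4-102 and 9.4% in Col-0. The list's median log2 difference was 0.32 in gun1-1, 0.05 in abi4-102 and 0.25 in Col-0, beside -0.01, 0.02 and 0.02 over all probe sets. AT2G41730 and AT5G43450 rose in all 3 genotypes, and 7 of the 10 passed in none.

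AT2G41730, whose probe set is of the kind that can also bind other transcripts, had log2 levels of 6.39 and 6.30 in gun1-1 with lincomycin, against 4.71 and 4.27 without it. In abi4-102 with lincomycin it had 7.07 and 6.83, against 4.89 and 4.31, and in Col-0 5.76 and 7.09, against 4.84 and 4.83. The Col-0 arrays with lincomycin lay 1.33 apart, replicate 2 again being higher. It rose by 1.86 in gun1-1 (SE 0.34, limma adjusted p = 0.00808), 2.35 in abi4-102 (adjusted p = 0.00169) and 1.59 in Col-0 (adjusted p = 0.00864) on the log2 scale. The list was drawn up with results of these arrays known, so these p-values and the list's other calls are not independent of that choice. AT5G43450 rose 2.08-fold in gun1-1, 1.67-fold in abi4-102 and 1.91-fold in Col-0. AT2G32020 rose 2.02-fold in abi4-102 and had log2 differences of 0.53 in gun1-1 and 0.36 in Col-0, which did not pass.

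Of relatives of the 4 genes, chosen after their values were seen, none passed. AT5G64400, which encodes the nearest relative of the AT5G09570 protein, had log2 differences of 0.18 in gun1-1, 0.07 in abi4-102 and 0.13 in Col-0 (SE 0.11), and did not pass. AT2G04070, another MATE transporter gene, 5 places from AT2G04050, had 0.29, 0.02 and 0.23 (SE 0.20) and did not pass. Of 14 listed genes of alternative respiration, which carries electrons past the proton-pumping complexes, 5 could be read. They were NDB1, NDB2, NDB3, NDB4 and NDC1, so no gene for alternative oxidase was among them. Of these 5 genes 0 passed in any genotype. Their log2 differences ran from -0.35 (NDC1 in abi4-102) to 0.21 (NDC1 in gun1-1 and NDB1 in Col-0). NDB4 had group means of 3.88 to 4.29 and AT2G04070 of 4.50 to 4.80, dim levels at which RMA understates differences. AT5G51440, a mitochondrial small heat shock protein gene, was also named after its values were seen, so they are given without a test. It had log2 differences of 0.65 in gun1-1, 0.16 in abi4-102 and -0.32 in Col-0 (SE 0.21). With lincomycin it was 1.89-fold higher in gun1-1 than in Col-0 (log2 difference 0.92, SE 0.21). The difference between the responses of these genotypes was 0.96 (SE 0.30).

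**Figure D4:**
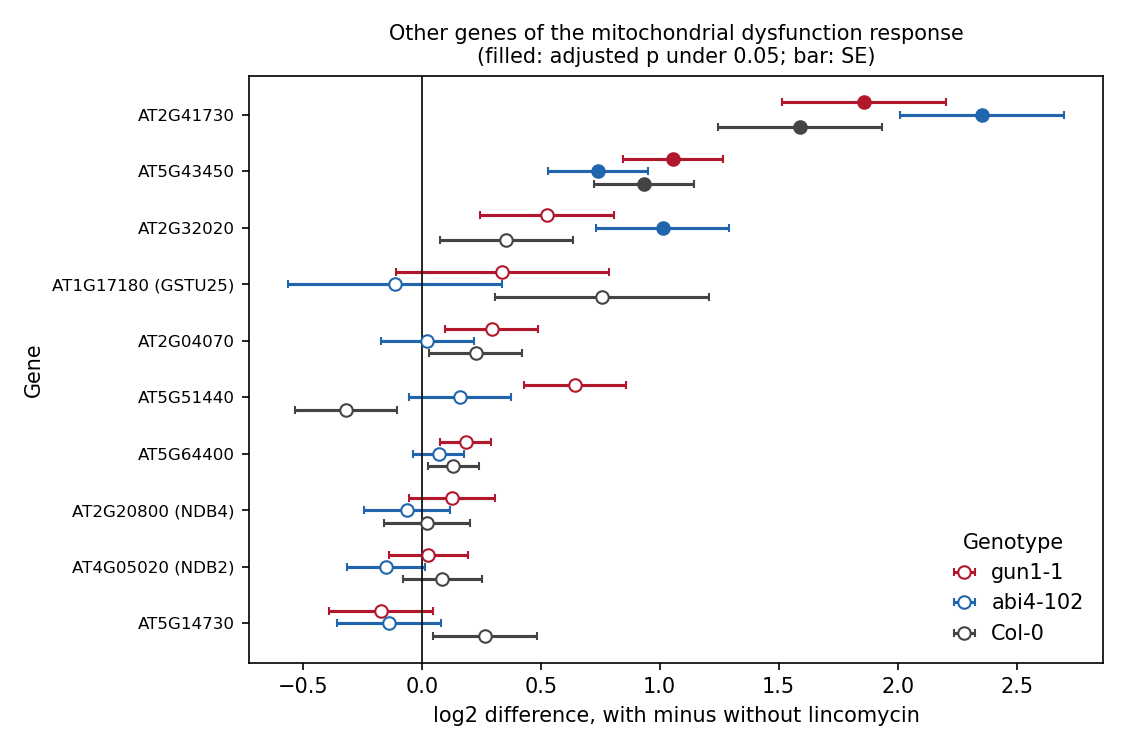
Log2 difference with minus without lincomycin for the 10 measured genes of the mitochondrial dysfunction list, by genotype. Filled points passed at an adjusted p under 0.05 and bars are SE. AT2G41730 and AT5G43450 are filled in all 3 genotypes, AT2G32020 in abi4-102, and the other 7 genes in none.

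Genes of the respiratory chain and of mitochondrial translation were read in the same way, from lists also drawn up with results known. Of 11 measured nuclear genes for the respiratory chain and ATP synthase 1 rose in gun1-1, 2 in abi4-102 and 6 in Col-0, and 0 fell, beside the same 5.79%, 7.65% and 9.4% of all probe sets called higher. The cytochrome c gene CYTC-2 rose by 0.56 in gun1-1 and 0.51 in Col-0 on the log2 scale and had -0.07 in abi4-102, where it was higher than in Col-0 already without lincomycin (log2 difference 0.70, SE 0.15, adjusted p = 0.0411). COX5B-1, for a subunit of cytochrome c oxidase, rose by 0.50 in abi4-102 and 0.67 in Col-0. In gun1-1 it had 0.26, which did not pass. SDH2-2, for a subunit of succinate dehydrogenase, rose by 0.44 in abi4-102 and 0.46 in Col-0. In gun1-1 it had 0.37 (SE 0.11, limma adjusted p = 0.0503), just short of passing. Of 6 genes for translation in mitochondria 0 rose in gun1-1, 2 in abi4-102 and 1 in Col-0, against the same shares. The median log2 difference of the respiratory list was 0.26 in gun1-1, 0.10 in abi4-102 and 0.41 in Col-0, and of the translation list 0.22, 0.32 and 0.26. The plastid chaperonin gene Cpn60beta2 had log2 differences of -0.20 in gun1-1, which did not pass, -1.10 in abi4-102 and -1.72 in Col-0, which passed. A search of gene names and synonyms listed 11 other aminoacyl-tRNA synthetase genes, the family of AT1G17960, and may have missed further members. Only 1 of them, ALATS, had a probe set that could be read here. Its log2 differences of 0.21, 0.23 and -0.08 did not pass. No NAC factor of the list had a probe set that could be read here.

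The genes most like each member were taken as the 5 with the highest Pearson correlation over the 12 arrays, among 1207 or 1208 genes whose group means spanned at least 1 on the log2 scale. AT2G21640 was most like AT4G21740 (r = 0.97) and AT5G17760 (0.96). AT5G09570 was most like AT1G35420 and AT5G07340 (0.85 each). AT2G04050 was most like AT5G47070 and AT2G41730 (0.98 each), of which AT2G41730 is in the mitochondrial dysfunction list, and AT1G17960 ranked 4 among its nearest genes.

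AT1G17960 was by Pearson correlation most like rps15, a ribosomal protein gene of the plastid genome (r = 0.98). AT5G56520 and the plastid gene rpl14 followed (0.97 each). By Spearman's correlation rps15 ranked only 41, AT5G56520 134 and rpl14 78 among 1207 genes. AT2G15900, which was 5 by Pearson correlation (0.96), ranked 1 by Spearman's. The lincomycin response of rps15 was 0.90 in gun1-1, 2.05 in abi4-102 and 1.45 in Col-0, and that of rpl14 1.21, 3.19 and 2.04, in the same order of genotypes as for AT1G17960. Among the 6 arrays with lincomycin alone AT1G17960 correlated with rps15 at 0.97 and with rpl14 at 0.96, and among the 6 without it at 0.49 and 0.02. Likeness over these arrays is a description, and it carries the medium and the genotype together.

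Neighbours on the chromosome were read for up to 5 places on each side of each gene, which gave 13 measured genes. With lincomycin 0 of the 13 rose in any genotype, with 1 rise at an unadjusted p under 0.05 in Col-0. There 6540 of 22746 probe sets had such a p, in either direction. The gene AT2G04039, near AT2G04050, fell 3.03-fold in Col-0 and 1.95-fold in abi4-102 and had a log2 difference of -0.27 in gun1-1, which did not pass. With lincomycin AT2G04039 was 2.60-fold higher in gun1-1 than in Col-0 (log2 difference 1.38, SE 0.12, limma adjusted p = 5.9e-05). The neighbours were added after their values were seen, so this p-value is not independent of the choice. AT1G17970, the next gene after AT1G17960, fell 1.47-fold in gun1-1. The median log2 difference of the 13 neighbours was -0.01 in gun1-1, -0.03 in abi4-102 and 0.02 in Col-0.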

How the data were processed

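RNA of whole seedlings was hybridised to 12 Affymetrix arrays, 2 for each of 6 groups taken from the sample titles. The authors deposited log2 values made with RMA, per the submitters' processing notes; the sources used here give no version for it. That the scale is log2 follows from RMA and from the range of the deposited values. RMA equalises the arrays' distributions and shrinks differences between dim probe sets, so a change in total RNA would not be seen.

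Of 22810 probe sets, 64 controls were left out and 22746 entered a linear model (R 4.3.3, limma 3.58.1, lmFit and eBayes) of 6 group means, leaving 6 residual degrees of freedom. A call is a Benjamini-Hochberg adjusted p under 0.05 over all probe sets. Of these, 13513 name 1 gene, 503 several and 8730 none here. Where a gene had several, the probe set brightest on average stood for it. Names come from the array's annotation and from RefSeq's gene table (TAIR10.1), where 13286 of 13356 identifiers were found. The fit was tested on simulated data. The number of arrays limits the precision.

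The 4 genes and the lists were chosen with earlier results of these data known. Named genes are the 4 members, up to 3 called genes each way of a list, or those with the smallest p, and the 5 most like each member; relatives, AT5G51440 and neighbours were added after their values were seen. For AT2G04050 and AT1G17960 comparisons with abi4-102 with lincomycin carry no test, nor do those of AT5G09570 with gun1-1 with lincomycin, which is stricter than first planned. Alternatives were a replicate block, a fit of the compared groups alone, an intensity trend with a robust prior, centring on the median, quantile normalization again, the upper 60% of probe sets by mean, leaving out each array, and Spearman's correlation for likeness. The planned search for promoter motifs was not run, as no sequences were used here.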

Additional observations from a re-analysis of the deposited data

Results flagged for a closer look

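Among the lists and neighbours read beside the 4 stress genes, 4 genes had a lincomycin response that differed between gun1-1 and Col-0 by the interaction test of limma. Of all probe sets 4.38% passed it. These were the 1 measured gene of plastid protein stress, 2 of 3 photosynthetic markers and 1 of 13 neighbours. None passed among 10 genes of the dysfunction list, 11 of the respiratory chain or 6 of mitochondrial translation. Nor did any of 5 of alternative respiration, 3 chaperones and proteases or 4 root markers. Of the 3 chaperones and proteases HSP26.5 was dim, with group means of 3.21 to 3.64, where RMA understates differences. Lists and neighbours were chosen with results known, so these tests are not independent of the choice. The 4 genes that passed were all lower with lincomycin in Col-0 and less so in gun1-1. The plastid chaperonin gene Cpn60beta2 (AT3G13470) had log2 differences of -0.20 in gun1-1 and -1.72 in Col-0 (difference 1.52, adjusted p = 0.00191). For the antenna gene LHCB4.2 (AT3G08940) they were -0.41 and -1.47 (1.06, adjusted p = 0.00462). For LHCB4.1 (AT5G01530) they were -0.28 and -1.15 (0.88, adjusted p = 0.0292). AT2G04039, near AT2G04050, had -0.27 and -1.60 (1.33, adjusted p = 0.00192). None of the 3 stress genes tested passed this interaction test, which for them is not independent of their choice. Groups of 2 arrays were too small to look for single outlying arrays.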

How the results depend on the processing

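Of 48 comparisons of the 4 genes, all kept their direction and their side of the threshold, or stayed within the spread between replicates, under an intensity trend with a robust prior, median centring, quantile normalization again and the upper 60% of probe sets. In gun1-1 against Col-0 with lincomycin the fit of the compared groups alone lost AT2G21640 (0.74, adjusted p = 0.156), and a replicate block lost AT2G21640 (0.74, adjusted p = 0.0570). The cause was not tested. The replicate numbers do not pair the arrays: over 15 pairs of groups the deviations of same-numbered arrays correlated between -0.28 and 0.28, with 3 above 0.1, and 6 of 12 arrays correlated best with their own number. The block kept the count of called probe sets within 1.5 times in 12 of 12 comparisons and changed no other call of the 4 genes. Leaving out 1 array gave log2 differences in gun1-1 against Col-0 with lincomycin of 0.42 to 1.05 (AT2G21640), 0.56 to 1.03 (AT5G09570) and -1.21 to -0.31 (AT1G17960). The lincomycin response ranged from 2.09 to 2.72 (AT2G21640 in gun1-1), 0.57 to 1.04 (AT5G09570 in gun1-1), 2.59 to 3.31 (AT2G04050 in abi4-102), 1.75 to 2.45 (AT2G04050 in Col-0) and 1.72 to 2.62 (AT1G17960 in Col-0). For abi4-102 against Col-0 with lincomycin it ranged from 0.51 to 1.21 (AT2G04050) and 0.66 to 1.56 (AT1G17960), for their response difference from 0.50 to 1.21 and 0.83 to 1.73, and for the response of AT2G04050 in gun1-1 against abi4-102 from -1.01 to -0.30. AT5G09570 ranged from -0.046 to 0.42 in gun1-1 against abi4-102 with lincomycin, turning its sign without gun1-1 with lincomycin replicate 2, and its response difference from 0.41 to 0.88 (gun1-1 against Col-0) and 0.30 to 0.77 (gun1-1 against abi4-102). Counts of called probe sets moved by over 1.5 times in some settings. With the compared groups alone they were 766 of 2432 (lincomycin in gun1-1), 1966 of 2993 (in abi4-102), 1080 of 2279 (gun1-1 against Col-0 with lincomycin), 21 of 104 (abi4-102 against Col-0 with it), 761 against 383 (abi4-102 against Col-0 without it), 1311 of 2478 and 17 of 48 (gun1-1 against abi4-102 with and without it), and 54 of 121 (their response difference). The intensity trend gave 9 against 0 (response, abi4-102 against Col-0, 0 to 4 without 1 array), 205 against 121 and 78 against 48 (gun1-1 against abi4-102, response and without lincomycin), and the upper 60% gave 62 against 104 (abi4-102 against Col-0 with lincomycin). For gun1-1 against Col-0 without lincomycin the count of 5 became 2 on quantile normalization again, 1 with the upper 60% and 0 to 24 without 1 array. Leaving out 1 array also took the counts as low as 2099 (lincomycin in Col-0), 1145 (in gun1-1), 1156 (in abi4-102), 1501 (gun1-1 against Col-0 with lincomycin), 46 and 39 (abi4-102 against Col-0 with and without it), 1450 and 18 (gun1-1 against abi4-102 with and without it), and 392 and 20 (response difference of gun1-1 from Col-0 and from abi4-102). By Spearman's correlation 2, 2, 2 and 1 of the 5 genes most like AT2G21640, AT5G09570, AT2G04050 and AT1G17960 stayed among the nearest 5. With 2 arrays a group, small differences between genotypes are not detectable.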
